A study of Arabidopsis thaliana with 12 samples.

Results

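Class-j transfrags are transcript pieces that were assembled from the reads of 1 library, share at least 1 splice junction with a reference transcript and carry at least 1 junction that the reference transcript lacks. All rows with class code j in the 12 library tables were taken, 48541 of 353616 transfrags. They were joined across libraries by the locus identifier of the reference transcript and came from 9975 of the 21001 genes that had a transfrag of any class. The libraries are poly-A RNA of whole Arabidopsis thaliana seedlings of the Col background, 7 days old, from plates at 12 h light and 12 h dark and 21 °C, and each replicate pooled 15 seedlings. The 4 genotypes, with 3 replicates each, are WT, the single mutant smxl5-1, the double mutant smxl4-1 smxl5-1 and smax1-2. All 4 groups share the ecotype, age and growth conditions, and smxl5-1 is carried by both the single and the double mutant. For each gene and library the number of class-j rows was counted, and the class-j share was taken as their summed FPKM (fragments per kilobase of transfrag, scaled to the library) over the summed FPKM of class j and class =, the class of transfrags whose junctions match the reference transcript.

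Introns are removed from a transcript at a donor site that nearly always begins with GT and an acceptor site that nearly always ends with AG. In plants the most frequent form of alternative splicing is a retained intron, and other forms use a donor or acceptor site a few bases away or skip an exon. SR proteins and the small nuclear ribonucleoproteins choose the sites, and nonsense-mediated decay removes many transcripts whose reading frame is broken by the choice. SMAX1, SMXL4 and SMXL5 are related nuclear proteins. In seedlings SMAX1 is degraded in response to karrikins, and SMXL4 and SMXL5 are known for their part in phloem formation.

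The tables give lengths but no coordinates, so a class-j transfrag was read against the matching transfrag of the same assembled locus, library and reference transcript. Its exact difference in length was then compared with the exons, introns and splice sites of that transcript in the TAIR10.1 annotation. The sequences below are those of the exon lengths missing in all 12 libraries, of the single shifted sites found in at least 9 libraries, and of RBP-DR1 and PLR1, chosen for the reasons given with them. They were read from the RefSeq TAIR10.1 genome on the strand of the gene. The first pair are the only exons whose length was missing from a class-j transfrag in all 12 libraries. They belong to a pair of genes for RNA-binding KH domain proteins, exon 4 of AT4G26480.1 at chr4:13374123-13374282 on the minus strand and exon 3 of AT5G56140.1 at chr5:22726600-22726765 on the plus strand. Capitals mark the exon and lower case the 10 intron bases on each side.
AT4G26480 exon 4: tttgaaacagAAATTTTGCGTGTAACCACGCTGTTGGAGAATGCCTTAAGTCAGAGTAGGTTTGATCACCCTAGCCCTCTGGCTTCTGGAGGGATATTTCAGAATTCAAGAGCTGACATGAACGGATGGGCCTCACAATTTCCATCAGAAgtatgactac
AT5G56140 exon 3: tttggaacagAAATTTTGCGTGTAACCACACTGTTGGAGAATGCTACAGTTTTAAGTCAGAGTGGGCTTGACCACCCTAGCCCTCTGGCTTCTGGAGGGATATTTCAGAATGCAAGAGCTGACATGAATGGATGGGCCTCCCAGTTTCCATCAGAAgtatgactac

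A set of windows of 30 bases shows the splice sites whose distance equals a recurrent small difference. Capitals mark the annotated GT or AG and the second GT or AG at exactly that distance. AT3G24760 encodes a kelch repeat protein (donor of intron 1, chr3:9041262-9041291, 11 bases). CYP38 is a cyclophilin of the thylakoid lumen (acceptor of intron 3, chr3:189711-189740, 28 bases). AT1G35516 encodes a myb-like protein (donor of intron 1, chr1:13078909-13078938, 14 bases, in 10 libraries). AT1G66940 encodes a kinase-like protein (acceptor of intron 4, chr1:24973336-24973365, minus strand, 6 bases), and RBP-DR1 is an RNA-binding protein of the defence response, shown for its short distance (acceptor of intron 6, chr4:1377396-1377425, minus strand, 3 bases). PLR1, a pyridoxal reductase of vitamin B6 salvage, is shown because it had the smallest exact permutation value among the tested genes (acceptor of intron 2, chr5:21766291-21766320, minus strand, 9 bases).
AT3G24760 donor: ttgcttagGTatgttcctgGTatgatcatc
CYP38 acceptor: AGctgagatcttcatgtggggcattcgcAG
AT1G35516 donor: agcggcgGTaggctagctaagGTctagagt
AT1G66940 acceptor: cattgctttttAGtatcAGgtattattgtt
RBP-DR1 acceptor: tttccatttccatAGcAGcctcctggaact
PLR1 acceptor: tgcaaatgtcAGgacttaaAGggaaacaaa

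The 12 libraries held 27825 to 31919 transfrags each, of which 3653 to 4417 were of class j, from 3096 to 3592 genes. Class j made up 7.82% to 13.4% of the FPKM of classes = and j. The second replicate of smxl4-1 smxl5-1 had the highest percentage, the most transfrags, the most contained transfrags (class c, pieces inside a reference transcript, 14174) and the shortest median length over all transfrags (745 bases). The part of this fragmentation in its shares was not tested. Shoot markers (RBCS1A, LHCB1.3 and RCA) summed to 27623 to 46877 FPKM and root markers (PYK10, IRT1 and RHS19) to 1441 to 3662 FPKM, and all were detected. Of 4 seed storage genes, 2 were at 0 in every library, and their summed FPKM ran from 0 to 58.5 in WT, smxl5-1 and the double mutant and from 0 to 325.8 in smax1-2. No transfrag was listed below 10% of the most abundant one of its locus, so rarer forms are outside these tables.

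The number of class-j transfrags was 4078 ± 261 in WT, 3759 ± 112 in smxl5-1, 4238 ± 170 in smxl4-1 smxl5-1 and 4105 ± 275 in smax1-2 (mean ± SD, n = 3). The values of smxl5-1 were 3653, 3876 and 3749, and those of the double mutant were 4042, 4336 and 4337, without overlap. WT (4045, 3835 and 4354) overlapped with both, and smax1-2 (3901, 4417 and 3996) overlapped with WT and the double mutant and lay above smxl5-1. As a percent of all transfrags of the library, smxl5-1 (12.3, 13.9 and 12.8) and the double mutant (14.3, 13.6 and 14.5) overlapped. An exact permutation test over all assignments of the 12 libraries to 4 genotypes gave p = 0.136 for the number of transfrags, adjusted p = 0.273 over 4 measures. The same exact permutation test gave p = 0.131 (adjusted 0.273) for the number of genes, 0.607 (adjusted 0.809) for the percentage of FPKM and 0.905 for the median length, which was 1213 to 1255 bases on average in each genotype. With 3 libraries against 3, no pairwise exact permutation p can fall below 0.1. The library values are in the plot of class-j transfrags per library.

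**Figure D1:**
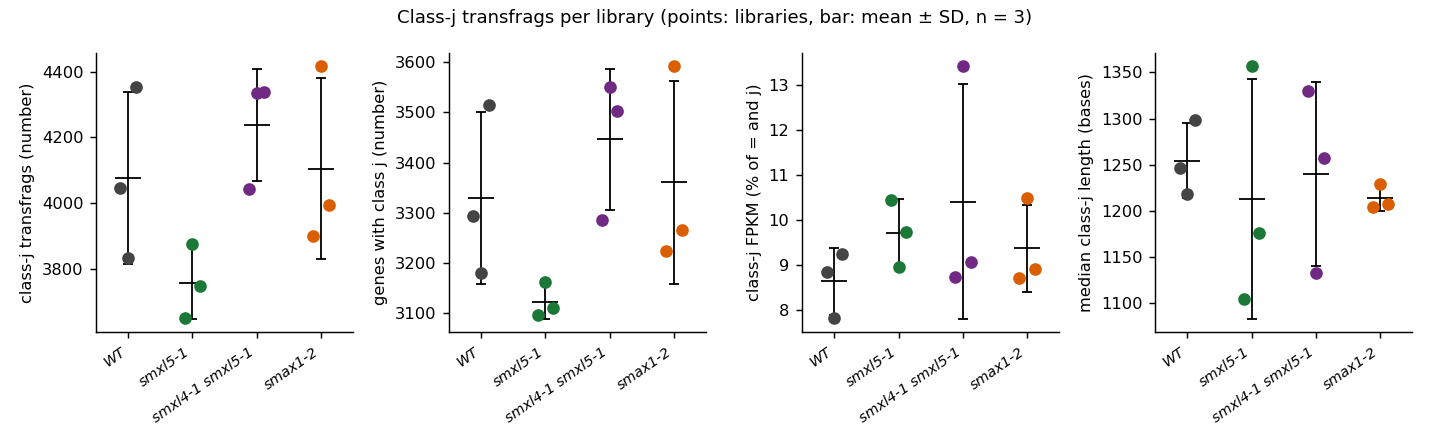
Class-j transfrags per library, by genotype: number of transfrags, number of genes, class-j percent of the FPKM of classes = and j, and median length in bases. Points are libraries and bars the mean ± SD (n = 3), and the smxl5-1 libraries hold 3653 to 3876 transfrags, all below the 4042 to 4337 of the double mutant. As a percent of all transfrags of the library these groups overlap.

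Few genes carried class j in every library. A class-j transfrag was listed in 1 library for 2741 genes (27.5%), in 2 for 1687, and in all 12 for 371, which is 3.72% of the 9975 genes. In 81.3% of the cases a gene had a single class-j row in a library, and the most was 6. Genes with more introns carried class j in more libraries: the median number of exons of the first annotated transcript was 2 in genes with class = and no class j, 6 in genes with class j in 1 to 2 libraries, 8 in 3 to 5 and 9 in all 12. Of the genes with no class j, 31.3% had a single exon, against 0.824% of those with class j in all 12. This contrast follows from the definition, since a transcript without an intron has no junction to share. Single-exon genes were kept among the genes without class j in all these comparisons. The median level of classes = and j was 17.3 FPKM in genes without class j and 17.6 FPKM in those with class j in all 12. Between these ends it was lower, at 15.4 FPKM in 1 to 2 libraries, 12.1 in 3 to 5 and 12.2 in 6 to 11. Several annotated isoforms existed for 30.1% of genes without class j and for 82.4% of genes with class j in all 12. The GT-AG share of their annotated introns was 99.1% in genes without class j and 98.6% in genes with class j in all 12.

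**Figure D2:**
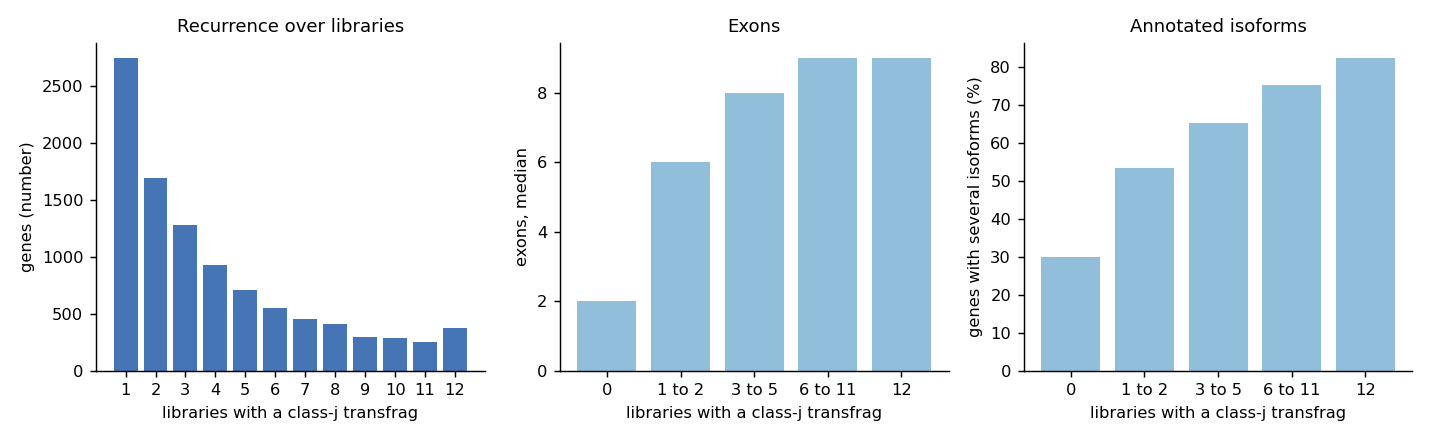
Left, number of genes by how many of the 12 libraries list a class-j transfrag, from 2741 genes in 1 library to 371 in all 12. Middle and right, median exon number and percent of genes with several annotated isoforms, for genes with class j in 0, 1 to 2, 3 to 5, 6 to 11 and 12 libraries, both higher where class j recurs.

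The 371 genes with class j in every library fell into 3 kinds. In 195 of them no library listed a transfrag that matched the reference, so their share was 1 throughout. In 10 genes class j and class = stood side by side in all 12 libraries, and in the other 166 class = was listed in some libraries. The first kind holds genes of high level. CA1, the chloroplast carbonic anhydrase, had 1525 to 4142 FPKM of class j in all 12 libraries, in 1 to 3 rows, and no matching transfrag. PCAP1, a cation-binding protein of the plasma membrane, had 1 class-j row in every library, with 454.6, 404.6 and 410.5 FPKM in WT and 431.2, 467.1 and 446.7 in smxl5-1. It had 328.8, 302.1 and 265.4 FPKM in the double mutant and 328.3, 300.3 and 325.5 in smax1-2, so that both these groups lay below WT and smxl5-1. This is a difference in level and not in share, and it was not tested here. In such bulk libraries fewer cells of a type and less RNA per cell cannot be told apart. NIA2, a nitrate reductase, had 243.5 to 378.8 FPKM of class j, DI19, a zinc finger protein of the drought response, 273.9 to 357.1, and PnsB4, a subunit of the chloroplast NDH complex, 167.1 to 208.5, each with a share of 1 in every library. AT1G73885 (224 FPKM on average), AT1G67700 (151) and AT1G51110 (113) completed the 8 genes of highest level with a mean share of at least 0.9. UAP56a, an RNA helicase of splicing and mRNA export, had 115 FPKM of class j on average and a mean share of 0.856. MGT7, a magnesium transporter, reached a mean of 93.5 FPKM through 1 library, the second replicate of smxl4-1 smxl5-1 with 1050 FPKM, while the other 11 had 1.11 to 16.9.

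The genes with the most class-j rows over the 12 libraries were BGLU5, a beta glucosidase, with 38 rows and SCPL13, a serine carboxypeptidase-like protein, with 37. AT3G08840 had 36 rows, LIG6, a DNA ligase, and AT3G61010 had 33 each, AT1G51430 and AT5G53010 had 32 each, CNGC12, a cyclic nucleotide-gated channel, and AT4G34140 had 31 each, and LUH, a LEUNIG-like corepressor, had 30. In 8 of these 10 genes the share was 1 in every library, and AT3G08840 and AT4G34140 had a matching transfrag in 2 libraries each.

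A class-j and a matching transfrag of the same locus, library and reference transcript were found 7736 times, in 3569 genes, and 7660 of these pairs had a transcript of that ID in the annotation. This covers 15.9% of the class-j transfrags. The class-j transfrag was shorter in 5844 pairs, longer in 1795 and of equal length in 21. It was longer by exactly the length of an annotated intron of that transcript in 523 pairs, 29.1% of the longer ones, in 323 genes. The opposite, a class-j transfrag shorter by exactly an intron length, occurred in 39 pairs, 0.667% of the shorter ones. It was shorter by exactly the length of an internal exon in 140 pairs (2.4% of the shorter ones) and longer by such a length in 21 (1.17% of the longer ones). The introns so matched had a median length of 126 bases and the exons of 81. In 1019 pairs the difference was 1 to 15 bases, and the most frequent sizes were 5 bases (190 pairs), 4 bases (154) and 7 bases (90). A difference of 3 bases was found in 41 pairs. The median share of the class-j transfrag in the FPKM of its pair was 0.282 at an intron length, 0.401 at an exon length and 0.301 at 1 to 15 bases. The sizes are shown in the plot of length differences.

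**Figure D3:**
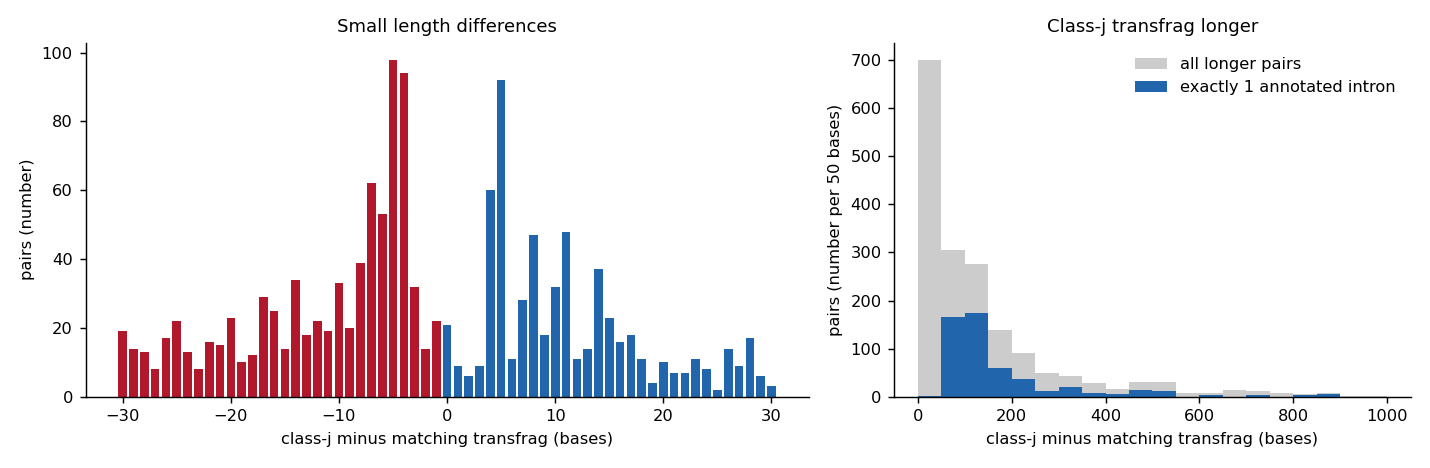
Class-j minus matching transfrag length in bases, counted over pairs of the same locus, library and reference transcript. Left, differences of up to 30 bases, with 98 pairs at 5 bases shorter and 92 at 5 bases longer. Right, pairs with a longer class-j transfrag in bins of 50 bases, with those at exactly the length of an annotated intron in blue (523 pairs in all).

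Most exact differences were seen once. Of 6760 distinct differences, 6347 occurred in 1 library, 183 in at least 3, 40 in at least 6 and 5 in all 12. Of the 183, 45 equalled the length of an intron and 9 that of an internal exon. A further 91 of the 95 remaining differences of up to 60 bases had a GT or an AG at that distance from an annotated donor or acceptor, counting GT only at donors and AG only at acceptors, on the strand of the gene. At the same distance in the other direction 37 of the 95 had one. A single such site existed for 58 differences, 39 at an acceptor and 19 at a donor, and several for 33. No single change of this kind was found for 38. These include every remaining difference of over 60 bases, which was not searched for a shifted site. In 52 of the 183 the change is present in another isoform of the TAIR10.1 annotation, in which 20.3% of the transcripts found by ID have the length given in the tables. Of the single shifted sites 17 of 58 were a multiple of 3 bases, as were 15 of the 45 intron lengths and 1 of the 9 exon lengths. A match in length or letters is a description and does not show the junction itself.

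The pair of KH domain genes carried the most regular of these differences. In AT4G26480 the class-j transfrag was 140 bases shorter than the matching one in every library, which is the length of exon 4, wholly coding and not a multiple of 3. Its share was 0.395, 0.585 and 0.559 in WT, 0.752, 0.402 and 0.616 in smxl5-1, 0.545, 0.781 and 0.704 in smxl4-1 smxl5-1 and 0.678, 0.686 and 0.649 in smax1-2. The smax1-2 values lay above those of WT, and all other groups overlapped. In AT5G56140 the class-j transfrag was 146 bases shorter in every library, the length of exon 3, also wholly coding. Its share was 0.502, 0.587 and 0.743 in WT, 0.673, 0.490 and 0.625 in smxl5-1, 0.469, 0.692 and 0.659 in the double mutant and 0.612, 0.738 and 0.658 in smax1-2, and all groups overlapped. Over the 12 libraries the mean share was 0.613 ± 0.123 (SD, n = 12) in AT4G26480 and 0.621 ± 0.093 in AT5G56140, so the shorter form was on average the more abundant one in both. The exons are 90.4% identical, with 132 identical bases in 146 aligned columns. Reads from one could therefore be placed on the other, and how the authors' alignment treated such reads is not given in the sources used here. The limma F test found no difference among the genotypes (adjusted p = 1 in both).

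Small shifts recurred as regularly. In AT3G24760 the class-j transfrag was 11 bases longer in all 12 libraries, at a share of 0.265 to 0.672, and another annotated isoform uses the second donor printed above. In AT3G27340, a Myb domain gene, it was 5 bases shorter in all 12, at 0.275 to 0.49 of the pair, and in AT4G24090 it was 7 bases shorter in all 12, at 0.137 to 0.46. Both a donor and an acceptor would give these last differences, so the site is not identified. In CYP38 the class-j transfrag was 28 bases longer in 10 libraries and had 27.6 to 48.8 FPKM beside 98.8 to 140 FPKM of the matching form. Its share of the pair was 0.213 ± 0.031 (SD, n = 10), and the second and the third replicate of smxl5-1 listed no class-j transfrag. AT1G66940 was 6 bases shorter in 9 libraries, at 0.188 ± 0.049 of the pair. RBP-DR1 was 3 bases shorter in 6 libraries, at 0.212 to 0.744, with 2 AG dinucleotides 3 bases apart, and that form is in another annotated isoform. The shares of each library are in the plot of recurrent length differences.

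**Figure D4:**
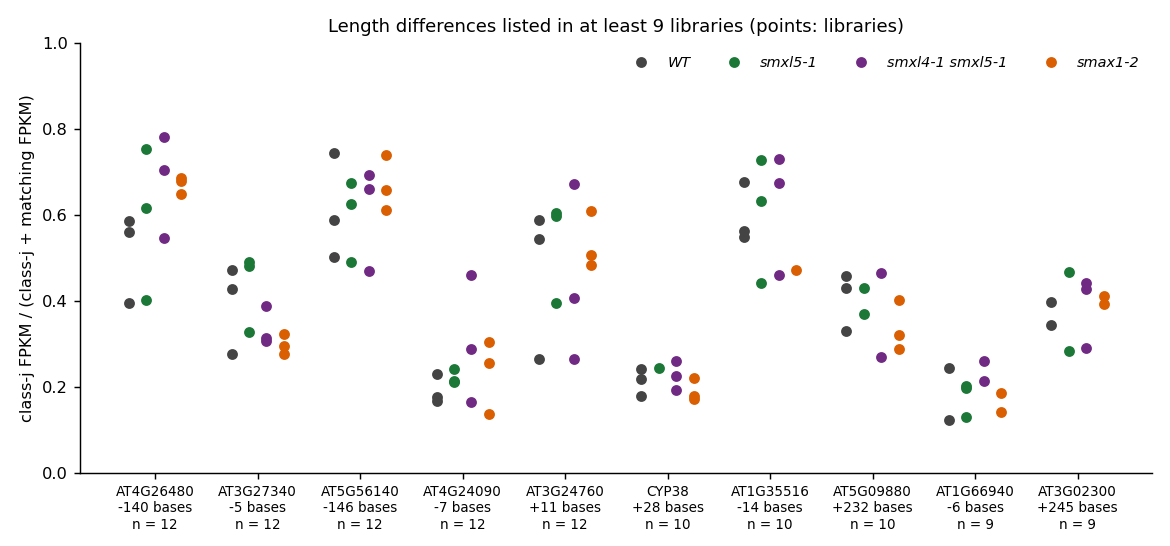
Class-j FPKM as a share of class-j plus matching FPKM for the 10 length differences listed in at least 9 libraries, by genotype. Each point is a library, the labels give the difference in bases and the number of libraries, and the KH domain genes AT4G26480 and AT5G56140 have mean shares of 0.613 and 0.621.

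The 45 recurrent differences at an intron length came from 45 genes, and a few of these are described here, chosen after their values were seen. SUF4, a zinc finger protein needed for FRIGIDA to raise FLC, had a class-j transfrag 519 bases longer in 8 libraries, the length of its intron 6, with 9.58 to 13.2 FPKM beside 9.55 to 14.5 FPKM of the matching form. AGL31, the flowering repressor MAF2, had one 86 bases longer in 7 libraries, the length of intron 3 of AT5G65050.3, at 0.48 to 0.634 of the pair. PRR7, a repressor of the clock, had one 133 bases longer in 7 libraries, the length of intron 3, with 10.8 to 19.0 FPKM and 0.251 to 0.697 of the pair. CCA1, a morning transcription factor of the clock, had one 478 bases longer in 5 libraries, the length of intron 4, at 0.142 to 0.214 of the pair. In 6 libraries it also had one 367 bases longer, which equals no single intron. AT3G02300, an RCC1 family gene, was longer by the 245 bases of its intron 6 in 9 libraries, at 0.384 ± 0.065 of the pair (SD, n = 9). U1-70K, a core protein of the U1 particle, had one 796 bases longer in 7 libraries, and AT5G09880, a CC1-like splicing factor, one 232 bases longer in 10, both without a single matching intron. SUF4 and PRR7 have the form in another annotated isoform.

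Class j was frequent among the SR protein genes. Of 20 SR protein genes 16 had a class-j transfrag in some library (80%) and 5 in all 12 (25%). The shares were 47.5% and 1.77% over all genes with a transfrag, which include single-exon genes. These 5 were SR34, RS31, RS41, SR45a and SCL33, and SR34 had 13.8 to 34.5 FPKM of class j beside 44.4 to 69.8 FPKM of the matching form in the 11 libraries that listed it. Of 20 genes of the spliceosome and of RNA-binding regulators, 12 had class j (60%, beside the same 47.5%). In all 12 libraries 1 had it (5%, beside 1.77%), AT1G60900, a large subunit of U2AF. Of 21 clock genes 17 had class j, and PRR7 and PRR9 had it in all 12. Of 18 genes known for alternative splicing 12 had it, and AGL31 and MAF1, both MADS-box repressors of flowering, had it in all 12. In MAF1 no matching transfrag was listed and class j summed to 18.7 to 52.5 FPKM. The median of the mean share over the tested genes was 0.487 for the 9 SR proteins and 0.509 for the 6 clock genes, beside 0.428 over all genes tested. The quartiles over all genes tested were 0.25 and 0.767, so the medians of both lists lay within the ordinary range.

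The test of the genotypes covered 1746 genes, those with at least 1 FPKM of classes = and j in all 12 libraries and class j in at least 3. Their shares were close to all or none: 38.3% of the values for a gene and library were 0, 42.7% were 1, and 18.9% lay between. In 194 of the tested genes the share was 1 in all 12 libraries, so these could not be called. The median SD of the share within a genotype was 0.265. The limma moderated F test on the arcsine square root of the share called 8 genes at a Benjamini-Hochberg adjusted p under 0.05, which is 0.458% of the genes tested, and 82 genes had an unadjusted p under 0.05. Of pairwise comparisons in the same limma fit, smxl5-1 against WT gave 6 calls (0.344%), 5 higher (0.286%) and 1 lower (0.0573%). The double mutant against WT gave 1 call, higher (0.0573%), and none lower (0%), where 18 genes had an unadjusted limma p under 0.05. The contrast of smax1-2 with WT gave 3 (0.172%), 2 higher (0.115%) and 1 lower (0.0573%). The double mutant against smxl5-1 gave 5 (0.286%), 1 higher and 4 lower (0.229%), and against smax1-2 it gave 1, lower. The contrast of smxl5-1 with smax1-2 gave 8 (0.458%), 5 higher (0.286%) and 3 lower (0.172%). Comparisons that share a genotype share its libraries. AT4G33540, AT5G67130, ACBP6 and AT2G26800, called in comparisons with smxl5-1, passed the filter only through that genotype. An exact permutation test of the same F statistic gene by gene, added after the data were seen, called no gene after adjustment. That test could not call a lone gene among 1746, since its 15400 partitions allow no p below 6.49e-05. It gave an unadjusted p under 0.05 for 52 genes (2.98%), and its smallest p was 0.000649, in PLR1. The other 7 of the 8 called genes had an exact permutation p of 0.0182. For a share that is equal in the 9 libraries of 3 genotypes no lower value is possible. The limma test on the same shares shuffled over the libraries gave nearly as many calls as the unshuffled shares. The called genes are therefore described by their values, and a difference between genotypes is not established for them.

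The PLR1 share was 0 in all 3 WT libraries, 0.216, 0.16 and 0.243 in smxl5-1, 0.156, 0 and 0 in smxl4-1 smxl5-1 and 1 in all 3 smax1-2 libraries. The smax1-2 libraries stood above all others, and smxl5-1 stood above WT and the double mutant. The limma F test gave an adjusted p of 0.00139, and the contrast of smax1-2 with WT an adjusted p of 0.000715. The matching transfrag had 59.7, 54.5 and 52.1 FPKM in WT and was not listed in smax1-2, where class j had 49.4, 49.6 and 54.3 FPKM, and no class-j transfrag was listed in WT. Where both were listed, class j was 9 bases shorter in 3 libraries and 10 bases shorter in the third replicate of smxl5-1. The AG 9 bases inside exon 3 printed above is the only site that gives a difference of 9 bases in this transcript. In smax1-2 there is no matching transfrag to measure against, and whether the junction is the same there cannot be read from the tables.

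In AT2G48020, a transporter of the major facilitator superfamily, WT alone listed a matching transfrag, with 22.3, 21.5 and 23.3 FPKM, and no class j. All 9 mutant libraries listed class j at 19.2 to 23.0 FPKM and no matching transfrag (limma F test, adjusted p = 2.57e-05). The pieces also differed in length, 1644 to 1708 bases for the matching and 1260 to 1908 bases for the class-j ones. UGP3, a plastid UDP-glucose pyrophosphorylase of sulfolipid synthesis, was the reverse for smxl5-1, where all 3 libraries listed the matching form at 29.4, 32.4 and 26.8 FPKM. The other 9 libraries listed class j, at 15.6 to 102.5 FPKM, and no matching form (adjusted p = 2.57e-05). Contained pieces were listed beside class j in 3 of those 9 libraries, at 36.5 to 109 FPKM each. In AT2G48020 and UGP3 each share was 0 or 1 and did not vary within a genotype. Both limma p-values therefore rest on variance taken from the other genes and not on the spread of replicates. The exact permutation p was 0.0182 in each.

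A further 4 genes had class j mainly in smxl5-1. AT4G33540, AT5G67130 and ACBP6 had class j in the 3 smxl5-1 libraries alone, so they passed the filter only through the genotype in which they were high and had to differ, and their values are a description. In AT4G33540, a metallo-beta-lactamase family gene, all 3 smxl5-1 libraries had a share of 1, with 53.1, 43.5 and 21.9 FPKM, and all other libraries a share of 0. Its class-j pieces were 853, 1056 and 1132 bases long against 1408 in the reference, and the same 3 libraries listed contained pieces as well, at 15.7, 85.1 and 174 FPKM. In AT5G67130, a PLC-like phosphodiesterase, the share was 1, 1 and 0.762 in smxl5-1 and 0 elsewhere. In ACBP6, a cytosolic acyl-CoA-binding protein, it was 1, 0.667 and 1 in smxl5-1 and 0 elsewhere, with 1143, 534 and 762 FPKM of class j. In AT2G26800, an aldolase superfamily gene, it was 0.668, 1 and 1 in smxl5-1, 0.169 in the third replicate of the double mutant and 0 in the other 8 libraries. With 1 class-j library outside smxl5-1, AT2G26800 also passed the filter only through smxl5-1, and its values are a description. The smxl5-1 libraries did not overlap with any other in these 4 genes. Over all 1746 tested genes, smxl5-1 did not overlap with WT in 3.61%, in either direction. For the double mutant this was 3.72% and for smax1-2 3.04%. AT1G62600, a flavin-binding monooxygenase gene, had a share of 1 in all 9 libraries of WT, smxl5-1 and the double mutant and of 0, 0 and 0.558 in smax1-2 (limma F test, adjusted p = 0.0317). AT3G52030, an F-box gene, was called in smxl5-1 against smax1-2 alone (adjusted p = 0.0228), with 0 in all smxl5-1 libraries, 0.572, 0.421 and 0.542 in the double mutant, 0, 0 and 0.601 in WT and 1 in all smax1-2 libraries. Adding class c to the denominator ended 4 of the limma F-test calls, with adjusted p = 0.396 for AT4G33540, 0.651 for UGP3, 0.321 for AT2G26800 and 0.905 for AT1G62600. The calls of AT2G26800 and AT1G62600 also ended without single libraries, those of AT1G62600 without any 1 of 11 libraries.

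**Figure D5:**
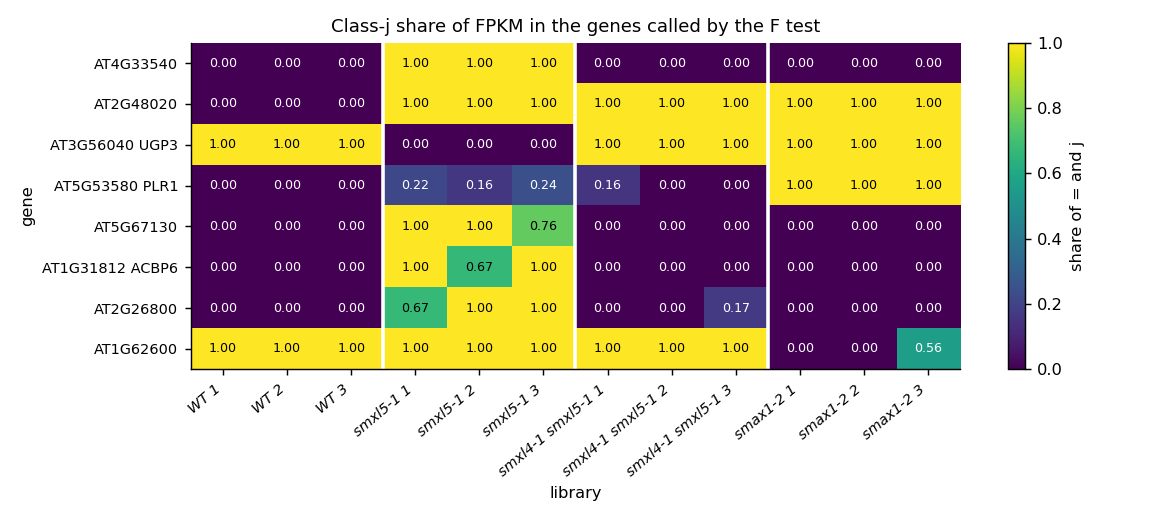
Class-j share of the FPKM of classes = and j in each library for the 8 genes called by the limma F test (0.458% of 1746). AT4G33540, AT5G67130, ACBP6 and AT2G26800 passed the filter only through smxl5-1. Rows are genes in order of p and columns libraries by genotype, and most shares are 0 or 1, with PLR1 at 0 in WT, 0.16 to 0.24 in smxl5-1 and 1 in smax1-2.

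Of the mutated genes, only SMXL5 carried class j in several libraries. In WT and smax1-2 its rows were all contained pieces, so no share could be formed and the gene was not tested. In smxl5-1 class j had 72.9 FPKM in the first replicate, in a piece of 1986 bases, 10.5 in the second and 6.38 in the third, the last 2 beside 31.3 and 34.6 FPKM of a matching transfrag. In the double mutant the first replicate listed no class j, the second had pieces of 1.9 and 7.82 FPKM and the third pieces of 3.75 and 10.5 FPKM. SMXL5 contained pieces in WT were of 5.16 to 7.67 FPKM, and in smxl5-1 the contained pieces were short, 130 to 185 bases, at 37.0 to 332 FPKM. The FPKM of SMXL5 was thus higher in the 3 smxl5-1 libraries than in WT, where no class-j or matching transfrag was listed and the longest piece of each library had 5.16, 6.07 and 5.37 FPKM. What the smxl5-1 allele changes in the transcript is not given in the labels. SMXL4 had 1 class-j row, 3.73 FPKM and 490 bases long, in the third replicate of smax1-2. SMAX1 had no class-j row in any library, and its matching transfrag was listed in all 12, at 15.1 to 18.2 FPKM in smax1-2 and 21.3 to 22.5 in WT. Of the SMXL family list 4 of 8 genes had class j in some library and none was tested, and of 11 karrikin and strigolactone genes 8 had a transfrag and 2, MAX1 and D27, had class j.

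Of the lists, 9 SR proteins, 1 spliceosome gene, 6 clock genes and 3 genes known for alternative splicing were tested and none was called by the limma F test, beside 0.458% of all genes tested and 82 genes with an unadjusted p under 0.05. No gene of the SMXL or karrikin and strigolactone lists was tested. So few genes at that share leave a count of 0 without information on the lists. Among SR proteins the smallest value of the limma F test was that of RS2Z32 (adjusted p = 0.973), whose class-j FPKM was 0 in all 3 WT libraries, 30.4, 0 and 26.8 in smxl5-1, 136.8, 25.7 and 14.9 in the double mutant and 0, 16.5 and 7.27 in smax1-2. By the limma F test SCL33 had an adjusted p of 0.973, SR34 of 0.981 and SR45a of 0.984. Among clock genes the limma F test gave an adjusted p of 0.973 for LHY, RVE8 and CCA1 and of 0.984 for PRR7. The LHY share was 0.403, 0.397 and 0 in WT, 1, 0 and 0 in smxl5-1, 1 in all 3 double-mutant libraries and 1, 0.339 and 1 in smax1-2. CCA1 had no class-j row in any smxl5-1 library, and it had 2 rows in 6 of the other 9. The limma F test gave an adjusted p of 0.973 for AT1G60900 and AGL31 and of 0.984 for AT4G14720. MAF1 and RS41 had a share of 1 in every library and could not be called.

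Class j was present in all 3 libraries of 1 genotype and absent from the other 9 in 22 genes, 7 in WT, 5 in smxl5-1, 7 in the double mutant and 3 in smax1-2. These are 1.71% of the 1283 genes with class j in exactly 3 libraries, and 4 of the 220 possible sets of 3 libraries (1.82%) are 1 genotype. The count is thus near the share of such sets, and the genes are listed as a description. In smxl5-1 they included ACBP6, AT4G33540 and AT5G67130, described above, and LSM1A, a protein of mRNA decapping, with 39.3, 31.4 and 40.8 FPKM of class j and no matching form there. In the double mutant the highest were AT5G26360, a chaperonin subunit, with 79.7, 25.4 and 81.5 FPKM and LACS7, a peroxisomal acyl-CoA synthetase, with 22.3, 25.7 and 18.8, followed by AT1G34360 (7.78, 27.1 and 7.37) and AT5G59830 (1.99, 13.9 and 4.9). In smax1-2 they were NRPB8A, a subunit of RNA polymerases, with 34.9, 16.8 and 33.5 FPKM, AT2G24420 with 21.4, 31.1 and 30.7, and ALPHA DOX2, an alpha dioxygenase, with 9.57, 7.15 and 13 FPKM. In WT the highest were AT2G47960 with 19.8, 5.39 and 5.28 FPKM, AT3G61670 with 7.99, 7.95 and 7.0, AT2G36670 with 6.04, 9.0 and 4.91 and AT4G36470 with 5.7, 3.76 and 4.09. ACBP6, AT4G33540, AT5G67130 and AT5G59830 were tested, and the other 18 were below 1 FPKM of classes = and j in some library. The reverse, class j in the 9 libraries of 3 genotypes and in none of the other, was found for 6 of the 293 genes with class j in exactly 9 libraries (2.05%, beside the same 1.82% of sets), among them AT2G48020 and UGP3.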

How the data were processed

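Poly-A RNA of 12 Arabidopsis seedling libraries, 3 per genotype, was analysed from the deposited transfrag tables, and no reads were processed again. The submitters' processing notes name TopHat2 2.0.14 and the TAIR10 build. The columns are those of a Cuffcompare table, per the file headers. No source used here gives the assembler, its settings, strand handling or annotation release. The deposited FPKM values with their bounds, the deposited percent of the most abundant transfrag of the locus, the deposited coverage, a signal that is the mean read depth, and the deposited lengths in bases were made by the authors. The tables hold no read counts, so depth is unknown and only the 3 replicates per genotype measure the error. The labels call the replicates biological pools of 15 seedlings.

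Shares of class-j FPKM (summed over class j, divided by classes = and j) were computed per gene and library. Genes with at least 1 FPKM in all 12 libraries and class j in at least 3 were tested with limma 3.58.1 in R 4.3.3 on the arcsine square root, with a mean-variance trend, in 1 fit of 4 groups, adjusted by Benjamini-Hochberg over all 1746 genes at a threshold of 0.05. Library measures were compared with exact permutation tests. Fits were tested on simulated data, where real shares shuffled over libraries gave nearly as many F-test calls as the unshuffled data. Replicate numbers were checked for pairing. Those of the double mutant follow the sample titles, since the deposited names of its first and second replicate carry each other's number. Exon structures, windows of 30 bases and gene names came from the RefSeq TAIR10.1 genome, which holds 98.2% of the reference transcripts by ID, and 20.3% of these have the same length in both. Python 3.11.15, numpy 2.4.6, pandas 2.3.3, scipy 1.17.1 and matplotlib 3.10.9 were used. The members, gene lists and tests were chosen with earlier results of these data known. Genes were named by a rule: the mutated genes, the called genes of smallest p (up to 10 for the F test) or, in each comparison and direction, the 4 with the largest difference and no overlap, the genes with the most class-j rows and FPKM in all 12 libraries, those with class j in 1 genotype alone, and up to 4 of each list by smallest p. The recurrent length differences were chosen after their values were seen, by how many libraries list them, and RBP-DR1 for its distance of 3 bases.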

Additional observations from a re-analysis of the deposited data

How the results depend on the processing

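Library-wide p-values kept their side of 0.05 under all alternatives run. Leaving out each library in turn, the exact permutation p ranged from 0.0677 to 0.3 for class-j transfrags, from 0.0665 to 0.273 for genes, from 0.274 to 0.889 for percent of FPKM and from 0.283 to 0.962 for median length. The counts of called genes moved more. Without single libraries the F test called 8 to 15 genes, smxl5-1 against WT 6 to 14, the double mutant against WT 1 to 5, smax1-2 against WT 2 to 6, the double mutant against smxl5-1 4 to 13, the double mutant against smax1-2 1 to 5 and smxl5-1 against smax1-2 6 to 13. The highest counts of the F test came without the first (15) and the third (14) replicate of smxl5-1. With class c, or classes c, e and o, in the denominator, the same comparisons gave 5, 1, 1, 2, 3, 2 and 1. With no filter on level they gave 25, 14, 7, 10, 12, 9 and 18 of 5904 genes, and weighting by length or effective length gave 2 for the double mutant against smax1-2. The exact permutation F test, added after the data were seen, called 0, and it could not have called a lone gene. A fit without transfrags under 300 bases, also added, called 8 by the F test. The cause of these changes was not tested. Among single-gene calls under all limma alternatives, 718 of 832 values stayed past the threshold, 114 did not and none reversed. PLR1, AT2G48020, AT5G67130 and ACBP6 stayed called by the F test in each, of which AT5G67130 and ACBP6 passed the filter through smxl5-1 alone. With the replicate number as a block the F test called 6, smax1-2 against WT 2, the double mutant against smxl5-1 4 and smxl5-1 against smax1-2 6. Correlations of same-numbered libraries ran from -0.0687 to 0.0637, and 0 of 18 were over 0.1. Those of different-numbered libraries ran from -0.0627 to 0.0749, and 4 of 12 libraries correlated best with their own number. The correlations thus show no pairing by number. With most shares at 0 or 1 they could miss a shared batch, so its absence is not established. The 10% limit on listed transfrags and the all-or-none shares limit what the share can resolve.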
